A study of Mus musculus with 6 samples.

Results

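Protocadherins are a family of cell surface adhesion receptors, and the genes described here are all those whose symbol begins with Pcdh and that the array measured alone. They were chosen by symbol from the probe sets whose annotation names exactly 1 gene, and where a gene had several such probe sets the one of highest mean intensity was kept. This gave 34 protocadherin genes from 36 probe sets, of 19937 genes measured alone on 27359 probe sets. Of the 34, 22 belong to the Pcdhb cluster and 12 are single genes outside the clusters. No Pcdha or Pcdhg gene was measured alone. Attention was drawn to the family by low values of the Pcdhb cluster in 1 tumour, so the values of single tumours that led to this choice are given below as a description and are not tested.

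The tumours came from 6 female FVBN mice carrying the MMTV-PyMT transgene, in which the MMTV promoter directs polyoma middle T antigen to the mammary epithelium. All 6 mice carried the transgene and were 75 to 90 days old when their tumours were assessed before dosing. The mice of the Tumor.TMP195 group (n = 3) were given TMP195, an inhibitor of class IIa histone deacetylases, at 50 mg/kg once a day into the peritoneum. Those of the Tumor.DMSO group (n = 3), called vehicle here, were given DMSO alone. Dosing lasted 5 days according to the sample labels and 2 weeks according to the series description. Whole tumours were used, 1 from each mouse, which makes each tumour a separate animal, and no group lacks the transgene.

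In the clustered protocadherins, many similar genes lie side by side, and each variable exon has its own promoter. In neurons, each cell switches on a small, variable subset of them, with CTCF, cohesin and DNA methylation taking part in the choice. The Pcdha and Pcdhg genes join their variable exons to shared constant exons, whereas each Pcdhb gene encodes its whole protein in a single exon. The single protocadherins lie outside the clusters and mostly fall into the delta1 and delta2 subfamilies. They are best known for cell adhesion and cell sorting in the nervous system, although some mark blood vessels or mesenchyme. Of those measured here, Pcdh1 and Pcdh12 lie on chromosome 18, as the Pcdhb cluster does.

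Median intensity over all probe sets lay between 44.8 and 46.4 in the 6 arrays, and the number of arrays, 3 in each group, limits the precision. Vehicle tumour 2 stood apart in its skeletal muscle markers (Myh4, Acta1, Ckm and 5 others), whose mean log2 intensity was 7.98 there and between 4.32 and 4.87 in the other 5 tumours. TMP195 tumour 2 had the lowest mean of the 7 adipocyte markers measured, 4.66, and the other tumours lay between 5.79 and 8.41. Results that rest on vehicle tumour 2 or TMP195 tumour 2 are therefore given with and without them. Markers of luminal epithelium, the labelled origin of these tumours, had means between 9.74 and 9.95.

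As a yardstick of brightness, the 1194 olfactory and vomeronasal receptor genes measured, which are not known for expression in mammary tissue, had a median log2 intensity of 2.17 and a 95th percentile of 3.95. Of the Pcdhb genes, 20 of 22 had a mean above that 95th percentile, and Pcdhb1 and Pcdhb9 did not. Of the single genes, 8 of 12 were above it, and Pcdh8, Pcdh10, Pcdh11x and Pcdh20 were not. Over all genes, 14147 of 19937 were above it. The Pcdhb means lay at percentiles from 8.71 to 47.7 of all genes, with a median of 41.2. The yardstick says only how bright a probe set is, and intensities of different probe sets are not compared as amounts of RNA.

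The Pcdhb cluster varied between individual tumours. Its genes were low together in vehicle tumour 2 and high together in TMP195 tumour 2. The mean log2 intensity over the 22 Pcdhb genes was 4.94, 4.51 and 4.73 under vehicle and 4.69, 5.12 and 4.82 under TMP195, where values stand in the order of tumours 1, 2 and 3 of a group here and below. The lowest and the highest of the 6 means thus belonged to different groups, and the groups overlapped.

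Each tumour was then set, gene by gene, against the median of the other 5, and this deviation is used below. In vehicle tumour 2, 20 of 22 Pcdhb genes were below the other tumours, with a median deviation of -0.28 (1.22-fold lower) and a range from -0.95 to 0.18. Of all genes, 46.8% were below in that tumour. For 12 of the 22 (54.5%), vehicle tumour 2 was the lowest of the 6, against 18.7% of all genes and 19.9% of the 3987 genes between the 30th and 50th percentile of mean intensity. At least 1.25-fold below were 10 of the 22 (45.5%), against 7.98% of all genes and 9.63% of that intensity band. These shares describe the pattern by which the family was chosen.

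TMP195 tumour 2 showed the opposite sign. There 17 of 22 Pcdhb genes were above the other tumours, against 51.3% of all genes. Their median deviation was 0.36 (1.28-fold higher), with a range from -0.27 to 1.08. It was the highest of the 6 tumours for 12 of the 22 (54.5%), against 25.4% of all genes and 24.0% of the intensity band. At least 1.25-fold above were 12 of the 22, against 11.8% of all genes and 13.1% of the band. Lowest in vehicle tumour 2 and at the same time highest in TMP195 tumour 2 were 8 of 22 Pcdhb genes, compared with 1424 of all genes (7.14%). Vehicle tumour 1 was also on the high side, with 19 of 22 above and a median deviation of 0.21. Above in that tumour were 50.3% of all genes and 61.4% of the band. The Pcdhb medians were -0.05, -0.11 and 0.01 in vehicle tumour 3, TMP195 tumour 1 and TMP195 tumour 3.

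**Figure D1:**
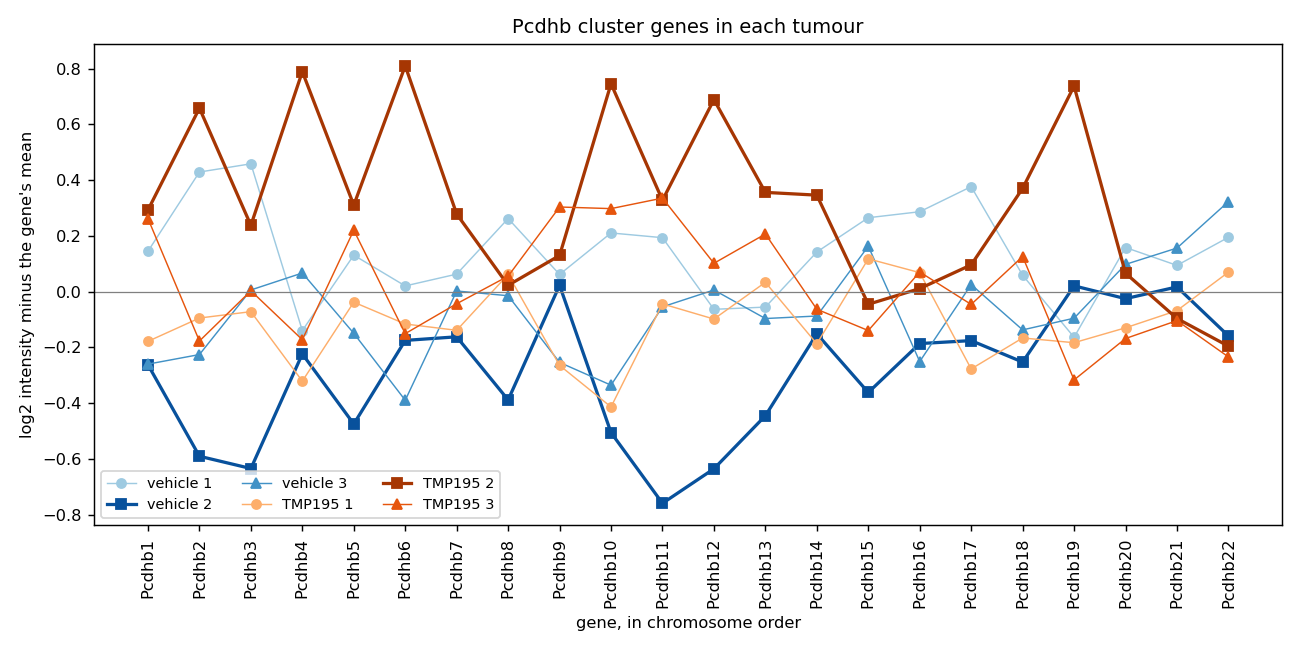
Log2 intensity of each of the 22 Pcdhb genes (horizontal axis, in chromosome order) minus that gene's mean over the 6 tumours (vertical axis), with 1 line per tumour, vehicle in blue and TMP195 in orange. The line of vehicle tumour 2 is the lowest at 12 of the 22 genes and reaches furthest down at Pcdhb11. That of TMP195 tumour 2 is the highest at 12 of the 22, and lies among the others at Pcdhb8, Pcdhb15 and Pcdhb16, for example. From Pcdhb20 onwards both lie among the other tumours.

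The genes with the most extreme values show how far the pattern reached. Pcdhb11 had log2 intensities of 5.55, 4.60 and 5.30 under vehicle and of 5.31, 5.69 and 5.69 under TMP195. Its value in vehicle tumour 2 was 1.94-fold below the median of the others, whereas the other 5 tumours lay close together. For Pcdhb10, the vehicle tumours read 4.85, 4.13 and 4.30 and the TMP195 tumours 4.22, 5.38 and 4.93. Here TMP195 tumour 2 was 2.12-fold above the others and vehicle tumour 2 was lowest by a small margin over TMP195 tumour 1.

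Pcdhb3, Pcdhb5 and Pcdhb12 repeated the low value in vehicle tumour 2. Intensities of Pcdhb3 were 5.92, 4.82 and 5.46 under vehicle and 5.39, 5.70 and 5.46 under TMP195. Those of Pcdhb5 were 5.78, 5.18 and 5.50, and 5.61, 5.96 and 5.87. Those of Pcdhb12 were 5.23, 4.65 and 5.29, and 5.19, 5.98 and 5.39. In all 3 genes vehicle tumour 2 was the lowest tumour, by deviations of -0.64, -0.61 and -0.64, and at least 1 of the remaining vehicle tumours lay within the range of the TMP195 tumours.

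Other Pcdhb genes were high in TMP195 tumour 2 while vehicle tumour 2 lay close to the rest. Pcdhb4 measured 5.40, 5.31 and 5.60 under vehicle and 5.21, 6.32 and 5.36 under TMP195. Pcdhb6 measured 4.93, 4.73 and 4.52, and 4.79, 5.72 and 4.76. Both had a deviation of 0.96 in TMP195 tumour 2, and the other 5 tumours overlapped. Pcdhb19, named after its values were seen, read 4.86, 5.04 and 4.92 under vehicle and 4.84, 5.76 and 4.70 under TMP195, so that vehicle tumour 2 was above the median of the others by 0.18. Pcdhb2, also named after its values were seen, combined both ends, with 5.37, 4.35 and 4.72 under vehicle and 4.85, 5.60 and 4.77 under TMP195.

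Along the chromosome, the deviations were not even. The cluster was divided into 3 stretches after the values were seen, so their difference is a description. Over Pcdhb1 to Pcdhb9 the median deviation in vehicle tumour 2 was -0.41. Over Pcdhb10 to Pcdhb13 it was -0.68, with all 4 genes lowest in that tumour. Over Pcdhb14 to Pcdhb22 it was -0.20, with 2 of 9 genes lowest there. TMP195 tumour 2 followed the same order of sizes, with median deviations of 0.35, 0.58 and 0.09. Neighbouring Pcdhb genes are similar in sequence, and how far their probes detect each other's transcripts was not tested, so the 22 genes are not independent measurements.

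One probe set is annotated to 14 Pcdha genes together and was not assigned to any of them. Its log2 intensities were 3.62, 3.30 and 3.15 under vehicle and 3.46, 3.52 and 3.48 under TMP195. All 6 lay below the receptor yardstick of 3.95. Its lowest value was in vehicle tumour 3, not in vehicle tumour 2.

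Genes that flank the clusters on the same chromosome were below the other tumours in vehicle tumour 2 at a share near that of all genes. Of 17 flanking genes measured out of 18 listed, 7 were below there, against 46.8% of all genes. The median deviation of the flanking genes was 0.07. They were also brighter as a list, with a mean log2 intensity of 7.57 in vehicle tumour 2 against 4.51 for Pcdhb. Named by the size of their deviation there, Cd14, a receptor for bacterial lipopolysaccharide, was at -0.26, Tmco6 at 0.25, Wdr55 at 0.25 and Hars, the histidyl-tRNA synthetase, at 0.18. In TMP195 tumour 2 the median deviation of the list was 0.00097, while Cd14 was at 1.16 there. Among the 15 regulators of clustered protocadherin promoters, such as the insulator protein Ctcf and the cohesin subunit Rad21, the median deviation was 0.02 in vehicle tumour 2 and -0.07 in TMP195 tumour 2.

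Several cell type marker lists moved with 1 of these tumours. In vehicle tumour 2, all 8 endothelial markers were below the other tumours (median deviation -0.25), as were all 8 fibroblast markers (-0.36) and 5 of 8 myoepithelial markers (-0.38). The endothelial mean of that tumour was 6.50, and the others ranged from 6.70 to 6.86. In TMP195 tumour 2, where Pcdhb was high, all 8 fibroblast markers were again below the others (-0.51), the myoepithelial median was -0.26 and the endothelial median was 0.06. Within the myoepithelial list, Trp63 (-0.75 and 0.98) and Oxtr (-1.29 and 1.04) were low in vehicle tumour 2 and high in TMP195 tumour 2, as Pcdhb was. Krt5 (-0.67 and -1.75), Mylk (-0.51 and -0.24) and Cnn1 (-0.26 and -0.83) were low in both. Krt14 (0.07 and -0.12), Acta2 (0.26 and -0.27) and Myh11 (0.04 and -0.36) had the opposite signs to Pcdhb. The list means of fibroblast markers ranged from 9.41 to 10.1 in the vehicle group and from 9.30 to 9.94 in the TMP195 group.

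Neuronal markers, among them Rbfox3, Snap25 and Tubb3, were dim, with 5 of 8 not above the receptor yardstick and means from 3.39 to 3.49 in the vehicle group and from 3.43 to 3.52 in the TMP195 group. Of the Schwann cell and nerve markers 6 of 8 were measured, and their median deviation was -0.06 in vehicle tumour 2 and -0.02 in TMP195 tumour 2. T cell markers had medians of -0.23 and 0.31 in the same tumours, pericyte markers -0.24 and 0.07, and macrophage markers -0.07 and 0.14. These signs, and those of the endothelial medians above, were the same as for Pcdhb. Of the 6 T cell markers, 4 were below the other tumours in vehicle tumour 2, and 2 were not above the receptor yardstick. The part of muscle, fat, stroma or any other cell type in the Pcdhb values was not tested. In whole tumours, fewer cells of a type and less RNA per cell cannot be told apart.

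**Figure D2:**
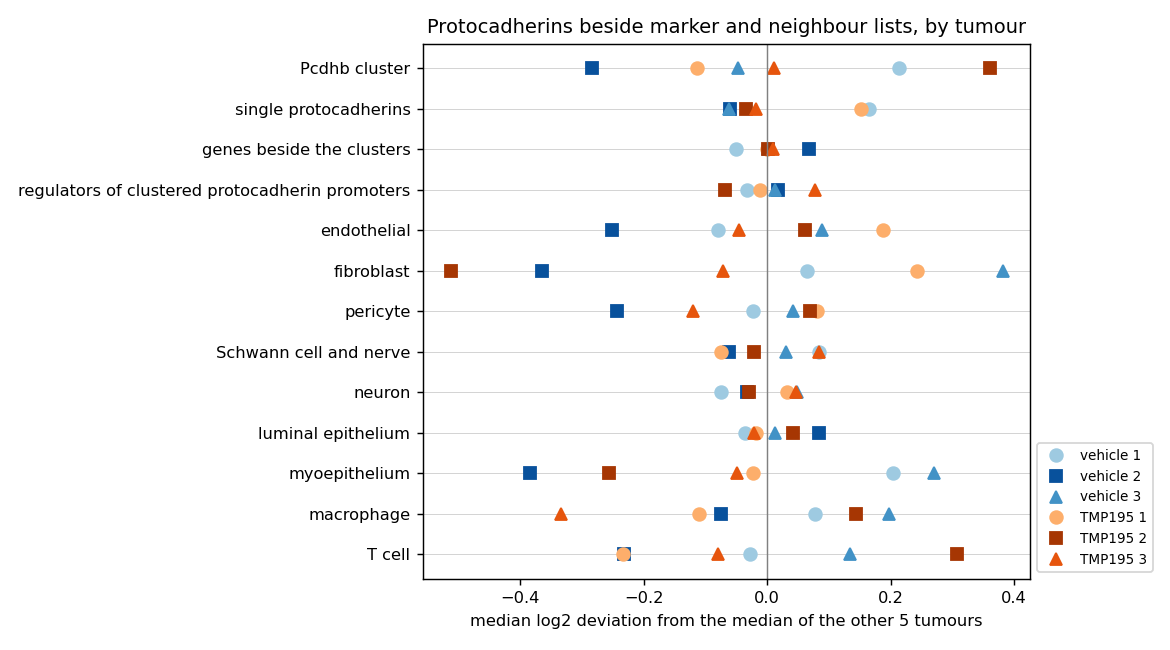
Median deviation from the median of the other 5 tumours (horizontal axis, log2) for the Pcdhb cluster, the single protocadherins and lists of flanking genes, promoter regulators and cell type markers (vertical axis), with 1 point per tumour, vehicle in blue and TMP195 in orange. The Pcdhb points of vehicle tumour 2 and TMP195 tumour 2 lie at the opposite ends, at -0.28 and 0.36, and the flanking genes lie between -0.05 and 0.07.

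The single protocadherins differed less between tumours in their mean than the Pcdhb genes did. Their mean log2 intensity was 4.51, 4.42 and 4.40 under vehicle and 4.55, 4.48 and 4.39 under TMP195. In vehicle tumour 2, 7 of 12 were below the other tumours, against 46.8% of all genes, with a median deviation of -0.06. Lowest there was 1 of 12, against 18.7% of all genes. In TMP195 tumour 2, 5 of 12 were above, against 51.3% of all genes, with a median deviation of -0.03. Highest there were 3 of 12, against 25.4% of all genes. With the 4 genes not above the receptor yardstick left out, these medians were -0.16 and 0.13, with the same signs as those of Pcdhb. Whether this differs from the Pcdhb cluster was not tested, since the cluster was chosen for its values in these tumours. The spread of a gene over the 6 tumours, from lowest to highest, had a median of 0.60 for single genes and 0.65 for Pcdhb genes, compared with 0.42 over all genes and 0.46 over the intensity band.

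**Figure D3:**
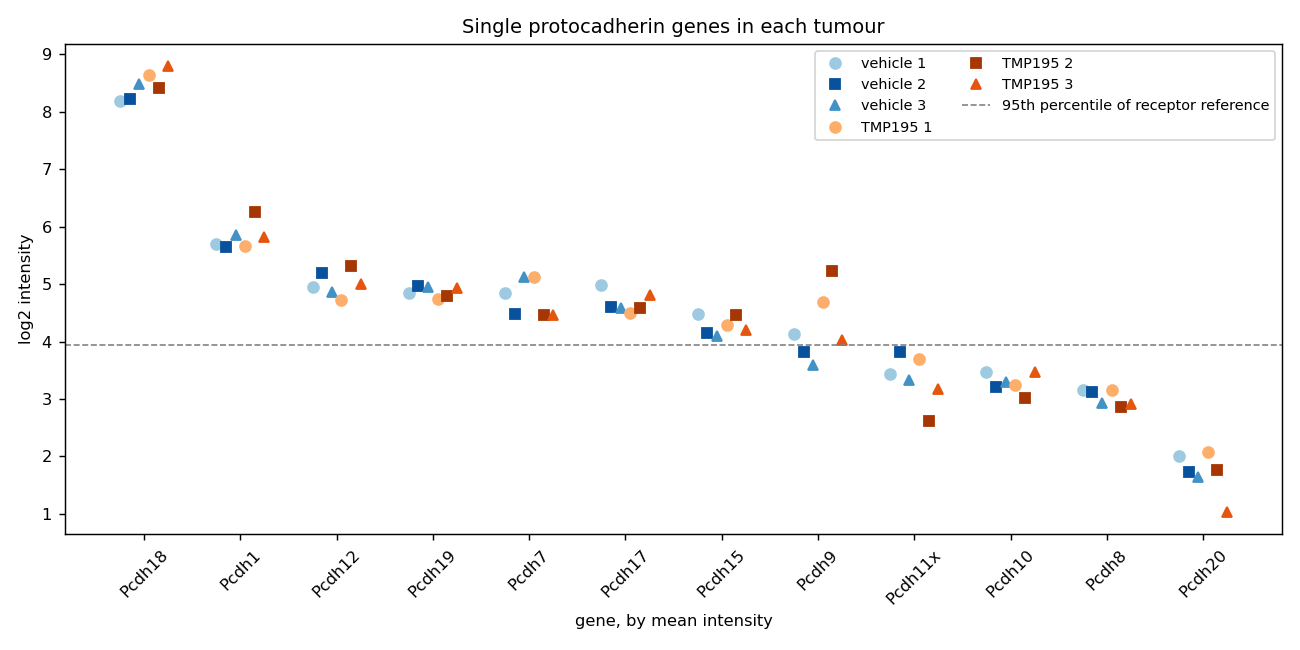
Log2 intensity (vertical axis) of the 12 single protocadherin genes in each of the 6 tumours (points, vehicle in blue, TMP195 in orange), with genes ordered by mean along the horizontal axis and the 95th percentile of receptor genes, 3.95, as a dashed line. Pcdh18 lies far above the line in every tumour, Pcdh9 spreads across it, and Pcdh20 stays below it.

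Pcdh18, Pcdh9 and Pcdh20 serve as examples because they had the brightest single probe set, the one that spread most over the tumours, and the dimmest. The 250 bases upstream of the start of each gene are printed 5′ to 3′ on the gene's strand from RefSeq, build GRCm38.p6, with CG dinucleotides in capitals. The windows are chr3:49757317-49757566 for Pcdh18, chr14:93890670-93890919 for Pcdh9 and chr14:88471397-88471646 for Pcdh20, all on the minus strand.
Pcdh18: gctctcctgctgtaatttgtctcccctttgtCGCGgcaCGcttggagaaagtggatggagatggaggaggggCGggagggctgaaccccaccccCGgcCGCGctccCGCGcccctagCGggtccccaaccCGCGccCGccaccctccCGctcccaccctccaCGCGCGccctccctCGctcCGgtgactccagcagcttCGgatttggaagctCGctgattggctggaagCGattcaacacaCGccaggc
Pcdh9: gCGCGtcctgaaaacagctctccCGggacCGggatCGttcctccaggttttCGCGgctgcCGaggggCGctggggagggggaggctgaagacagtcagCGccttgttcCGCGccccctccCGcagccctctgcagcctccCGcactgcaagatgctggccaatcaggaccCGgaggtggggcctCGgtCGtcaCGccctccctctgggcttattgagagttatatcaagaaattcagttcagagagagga
Pcdh20: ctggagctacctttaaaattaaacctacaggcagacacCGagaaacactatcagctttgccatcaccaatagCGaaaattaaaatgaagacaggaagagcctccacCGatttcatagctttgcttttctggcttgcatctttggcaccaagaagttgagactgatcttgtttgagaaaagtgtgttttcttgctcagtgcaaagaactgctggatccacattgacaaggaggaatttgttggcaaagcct
The windows of Pcdh18 and Pcdh9 hold 23 and 18 CG dinucleotides, and that of Pcdh20 holds 3, compared with a median of 6 over 32851 windows of this length. Windows were found for 9 of the 34 genes, with 2 windows for Pcdh9, and 25 genes had none. The GC box GGGCGG, which SP1-type factors bind, was the only motif searched. On either strand it occurred in 4 of the 10 protocadherin windows, those of Pcdh10, Pcdh17, Pcdh18 and Pcdh19, and in 32.7% of all windows, as a description of these letters only.

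Among the delta2 genes, Pcdh18, a receptor found in mesenchyme that binds the adaptor Dab1, was the brightest. Its log2 intensities were 8.18, 8.23 and 8.49 under vehicle and 8.64, 8.42 and 8.79 under TMP195. The groups overlapped by a small margin, since TMP195 tumour 2 was below vehicle tumour 3. Pcdh17 measured 4.98, 4.60 and 4.59, and 4.50, 4.59 and 4.80, and Pcdh19, whose human counterpart is mutated in an epilepsy of girls, measured 4.84, 4.97 and 4.96, and 4.74, 4.79 and 4.94. In both, the groups overlapped. Pcdh8, an activity-regulated adhesion receptor of synapses, ranged from 2.87 to 3.16, and Pcdh10, which recruits actin regulators of the WAVE complex, ranged from 3.01 to 3.47, all below the receptor yardstick.

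The delta1 genes varied more. Pcdh9 read 4.13, 3.82 and 3.59 under vehicle and 4.69, 5.23 and 4.03 under TMP195. TMP195 tumour 3 lay just below vehicle tumour 1, and the other TMP195 tumours were above all vehicle tumours. A second probe set of Pcdh9 gave 3.96, 3.78 and 3.57, and 4.70, 5.17 and 4.10, with no overlap between the groups. Pcdh1, an adhesion protein of airway epithelium, read 5.69, 5.64 and 5.86, and 5.67, 6.25 and 5.81, with its highest value in TMP195 tumour 2. Pcdh7 read 4.85, 4.49 and 5.13, and 5.12, 4.46 and 4.46, so that low and high values occurred in both groups. Pcdh11x, on the X chromosome, ranged from 2.62 to 3.82, with its highest value in vehicle tumour 2 and its lowest in TMP195 tumour 2, the reverse of Pcdhb.

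Of the remaining single genes, Pcdh12, an adhesion protein of vascular endothelium, read 4.96, 5.20 and 4.86 under vehicle and 4.73, 5.32 and 5.01 under TMP195. Its value in vehicle tumour 2 was above the median of the others by 0.24, although the 8 endothelial markers were below in that tumour. Pcdh15, part of the tip link of sensory hair cells, ranged from 4.10 to 4.47, and Pcdh20 from 1.03 to 2.07. The groups overlapped for all 3.

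The comparison the study was designed for sets the 3 TMP195 tumours against the 3 vehicle tumours. No protocadherin passed the test. Pcdhb genes mostly had a higher mean under TMP195 and single genes were split. In limma, with Benjamini-Hochberg adjustment over all genes, 0 of 34 protocadherins and 0% of the 19937 genes had an adjusted p under 0.05, and the lowest adjusted p of all genes was 1.00. By unadjusted p, 3 of 34 protocadherins were under 0.05, namely Pcdhb13, Pcdh9 and Pcdh18, against 2.52% of all genes (502). This count became 5 when vehicle tumour 1 or TMP195 tumour 1 was left out. It became 1 when the tumour left out was vehicle tumour 2, TMP195 tumour 2 or TMP195 tumour 3.

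Pcdhb13 had the smallest unadjusted p. Its log2 intensities were 4.21, 3.82 and 4.17 under vehicle and 4.30, 4.62 and 4.47 under TMP195. All 3 TMP195 tumours were above all 3 vehicle tumours, with vehicle tumour 2 lowest. Low Pcdhb values in vehicle tumour 2 led to the choice of the family, so the test of Pcdhb13 is not independent of that choice. The difference of TMP195 minus vehicle was 0.40 ± 0.14 (SE, n = 3 and 3), or 1.32-fold, with a 95% interval from 0.06 to 0.73 (limma, unadjusted p = 0.0263, adjusted p = 1.00). For Pcdh9 the difference was 0.81 ± 0.30 (SE), or 1.75-fold, with an interval from 0.10 to 1.52 (limma, unadjusted p = 0.0311, adjusted p = 1.00), and its second probe set gave 0.89. Without TMP195 tumour 2 the difference of Pcdh9 was 0.52, and without both second tumours it was 0.50, while that of Pcdhb13 was then 0.20. For Pcdh18 it was 0.32 ± 0.13 (SE), with an interval from 0.0022 to 0.64 (limma, unadjusted p = 0.0488, adjusted p = 1.00).

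Pcdhb21 was the only other protocadherin whose groups did not overlap, and it was lower under TMP195. It read 4.15, 4.08 and 4.22 under vehicle and 3.99, 3.96 and 3.96 under TMP195, a difference of -0.18 ± 0.085 (SE). Groups thus stood apart in 2 of 34 protocadherins (5.88%), against 6.68% of all genes, which is close to that background. With 1 tumour left out, fewer tumours have to stand apart and the share of all genes also grows. Without vehicle tumour 1 the groups stood apart in 12 of 34 protocadherins (35.3%), against 18.5% of all genes, and without TMP195 tumour 1 in 13 (38.2%), against 16.9%. Without vehicle tumours 2 or 3 it was 5 and 3 (14.7% and 8.82%), against 13.97% and 14.54% of all genes. Without TMP195 tumours 2 or 3 it was 5 and 4 (14.7% and 11.8%), against 15.2% and 15.8%. These last 4 counts were close to or below the background. Without both second tumours it was 11 of 34 (32.4%), against 28.8% of all genes. Of these 11, 2 were higher and 9 lower under TMP195, against 2862 and 2885 of all genes. Of the 12 without vehicle tumour 1, 10 were higher and 2 lower, against 1835 and 1850. Of the 13 without TMP195 tumour 1, 8 were higher and 5 lower, against 1943 and 1425. Pcdhb genes made up 9 of those 12 and 10 of those 13. Both settings keep vehicle tumour 2, whose low Pcdhb values led to the choice of the family. The counts and directions without vehicle tumour 1 or TMP195 tumour 1 are therefore not independent of that choice.

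Of the Pcdhb genes, 17 of 22 had a higher mean under TMP195, against 49.5% of all genes. Their median difference was 0.14, and that of all genes was -0.0014. Both values include vehicle tumour 2, whose low Pcdhb values led to the choice of the family, so neither is independent of that choice. The largest differences were 0.46 ± 0.25 (SE) for Pcdhb12, 0.42 ± 0.31 for Pcdhb10 and 0.41 ± 0.25 for Pcdhb11, and the interval of each included 0. Without vehicle tumour 2 these 3 differences were 0.26, 0.27 and 0.14, without TMP195 tumour 2 they were 0.23, 0.15 and 0.35, and without both they were 0.03, 0.0046 and 0.076. The count and the median also depended on the second tumours: without vehicle tumour 2, 14 of 22 were higher with a median of 0.08. Without TMP195 tumour 2, 12 of 22 were higher with a median of 0.04. Without both, 10 of 22 were higher and the median was -0.09. The median was 0.26 when vehicle tumour 1 was left out and 0.28 when TMP195 tumour 1 was left out.

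The same 3 stretches, drawn after the values were seen, can be read for the difference between the groups. All 9 genes from Pcdhb1 to Pcdhb9 and all 4 from Pcdhb10 to Pcdhb13 had a higher mean under TMP195, with median differences of 0.20 and 0.42. From Pcdhb14 to Pcdhb22, 4 of 9 were higher, with a median of -0.04. Without both second tumours, Pcdhb2, Pcdhb3 and Pcdhb4 of the first stretch were at -0.24, -0.27 and -0.21. Pcdhb22, also named after its values were seen, had the lowest difference of the cluster, at -0.24 ± 0.15 (SE), with -0.38 when vehicle tumour 2 and -0.14 when vehicle tumour 3 was left out. The intervals were wide: their median half-width was 0.40 for Pcdhb genes and 0.36 for single genes, compared with 0.30 for all genes.

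Of the 12 single genes, 5 had a higher mean under TMP195, and their median difference was -0.09. With the 4 genes not above the yardstick left out, 5 of 8 were higher and the median was 0.05. Beside Pcdh9 and Pcdh18, Pcdh1 was higher by 0.18 ± 0.16 (SE), Pcdh15 by 0.09 ± 0.13 and Pcdh12 by 0.01 ± 0.17. A second probe set of Pcdh15 had the opposite sign, at -0.07. Without TMP195 tumour 2, Pcdh1 was at 0.01 and Pcdh11x at -0.09. For Pcdh11x the difference was -0.36 ± 0.27, and the other 6 lay between -0.17 and -0.08. The interval of each of these 10 differences included 0.

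**Figure D4:**
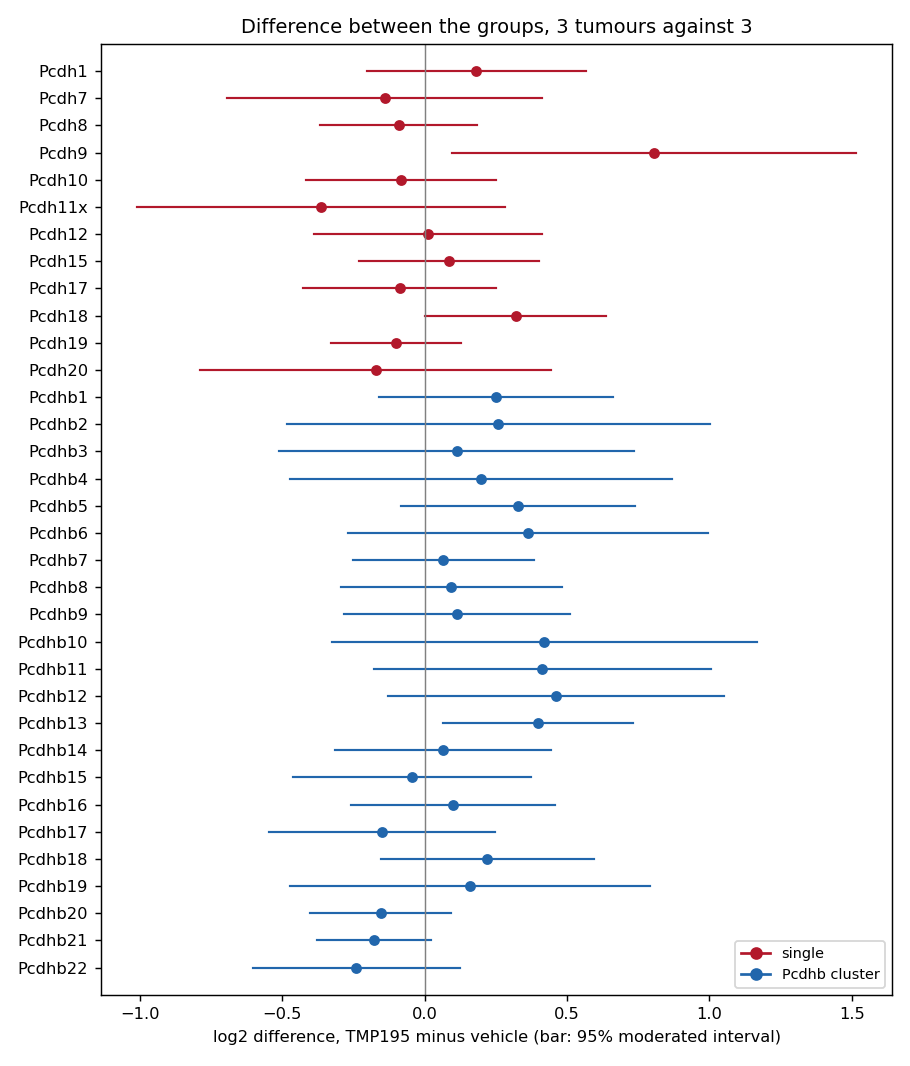
Difference in log2 intensity, TMP195 minus vehicle (horizontal axis), for each of the 34 protocadherins (vertical axis), with 95% moderated intervals from limma over 3 tumours against 3, single genes in red and Pcdhb genes in blue. The intervals of Pcdh9, Pcdh18 and Pcdhb13 lie above 0, unadjusted for the number of genes, and those of the other genes include 0.

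Genes that work with protocadherins also had no adjusted call. Of the 15 promoter regulators, 6 were higher and 9 lower under TMP195. None had an unadjusted p under 0.05 in limma, against 2.52% of all genes, and lists this short would hold few at that share. Groups stood apart in 1 of the 15, against 6.68% of all genes. The maintenance DNA methyltransferase Dnmt1 differed by -0.17 ± 0.13 (SE), the cohesin subunit Stag2 by 0.12 ± 0.094 and the de novo methyltransferase Dnmt3a by 0.09 ± 0.081. Of the cytoplasmic partners, 14 of 17 were measured, with 11 higher, 3 lower, 0 at an unadjusted p under 0.05 in limma and groups apart in 1. Abi2, a subunit of the WAVE complex, differed by 0.19. Of the 8 tip link partners of Pcdh15, 3 were higher and 5 lower, and 5 were not above the receptor yardstick.

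Other cadherins were read as a comparison. Of the large and related cadherins, 13 of 14 were measured, with 8 higher and 5 lower. Groups stood apart in 5 of the 13, a larger share than the 6.68% of all genes. TMP195 was higher in Fat2, Fat3, Fat4 and Cdhr4 of these, and lower in Cdhr2. Of the 13, 4 were not above the receptor yardstick, Cdhr2 among them. The groups of Cdhr2 were apart by a small margin, with a lowest vehicle value of 3.526 and a highest TMP195 value of 3.520. Cdhr4 differed by 0.54 ± 0.15 (SE), the only gene of that list with an unadjusted p under 0.05. Of the 11 classical cadherins, 7 were higher and 4 lower. Their median deviations had the same signs as those of Pcdhb, at -0.13 in vehicle tumour 2 and 0.18 in TMP195 tumour 2. In these tumours 8 and 2 of the 11 were below the others, against 9337 and 9712 of the 19937 genes. For the large and related cadherins the medians there were -0.12 and 0.06, with 10 and 5 of 13 below. Cdh6, a cadherin of kidney and neural crest, read 4.39, 4.24 and 4.38 under vehicle and 4.85, 4.84 and 4.60 under TMP195, a difference of 0.43 ± 0.11 (SE). All 3 TMP195 tumours were above all vehicle tumours for this gene, and its adjusted p in limma was also 1.00. Cdh5, the VE-cadherin of endothelium, differed by 0.21 ± 0.15.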

How the data were processed

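Total RNA of 6 whole tumours was biotin-labelled and hybridised to Affymetrix arrays. Per the submitters' processing notes, Affymetrix Power Tools and RMA were used. The deposited values are array intensity per probe set. Their scale is not stated and was taken as linear from its range, and log2 was taken here. RMA as usually run makes array distributions alike, so a shift of most genes would not be visible. Their versions were not given in the sources used here.

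Probe sets were named through the platform annotation. Of 27359, 21784 had 1 symbol, 1620 several and 3955 none. The symbols of all 34 protocadherins matched RefSeq by Entrez ID. Groups were compared with limma 3.58.1 in R 4.3.3 (lmFit, eBayes, two-sided, no covariate, 4 residual and 2.93 prior degrees of freedom) over 19937 genes with Benjamini-Hochberg adjustment, with intervals of 95%. No gene was left out for low intensity. The pipeline was tested on simulated data. Descriptions and plots used pandas 2.3.3, numpy 2.4.6 and matplotlib 3.10.9 in Python 3.11.15. The number of per-sample columns left unused was 0.

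The members and gene lists were chosen with earlier results of these data known. The rule for named genes took every single protocadherin, the 3 Pcdhb genes of highest mean, of largest difference and of largest deviation in any tumour, members with an unadjusted p under 0.05 or groups apart, up to 3 genes of each partner list by unadjusted p, and up to 4 flanking genes. Pcdhb2, Pcdhb19 and Pcdhb22 and the stretches of the cluster were chosen after values were seen. Replicate numbers were not taken as pairs, since tumours came from separate mice and the deviations of same-numbered tumours correlated at -0.212, -0.063 and -0.097. Alternatives were a replicate block, median centring, cyclic loess, a trended robust prior, a low intensity filter, the mean of a gene's probe sets, array weights and leaving out each tumour, with 2 further ones added after seeing the data.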

Additional observations from a re-analysis of the deposited data

How the results depend on the processing

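In limma 0 genes passed an adjusted p under 0.05 in any setting run. Genes at an unadjusted p under 0.05 numbered 502, and 243 when genes below the 30th percentile of intensity were left out, 938 with array weights, 397 with the replicate block and 503 to 669 with 1 tumour left out. Protocadherins at that level numbered 3, with 5 under array weights, 2 under the replicate block and 1 to 5 with 1 tumour left out. Protocadherins with groups apart numbered 2, with 3 to 13 when 1 tumour was left out and 11 without both second tumours, while the share of all genes went from 6.68% to between 13.97% and 18.5%, and to 28.8%. Pcdhb genes with a higher mean numbered 17, with 13 under array weights, 12 to 18 when 1 tumour was left out and 10 without both second tumours. The median Pcdhb difference of 0.14 was 0.089 with array weights. It ranged from 0.035 to 0.28 with 1 tumour left out and was -0.093 without both second tumours. The lowest array weights were those of TMP195 tumour 2 (0.44) and vehicle tumour 2 (0.61), and the highest was that of vehicle tumour 3 (2.30). The median single difference of -0.09 was 0.048 under the intensity filter or without members not above the receptor yardstick, -0.0038 with array weights, and from -0.072 to -0.0070 with 1 tumour left out. The replicate block left both medians where they were, at 0.14 and -0.09. Under it Pcdhb13 no longer had an unadjusted p under 0.05, and no adjusted call changed. The median deviation of single genes moved to 0.023 in vehicle tumour 1, -0.0033 in TMP195 tumour 1 and 0.13 in TMP195 tumour 2 under those same 2 settings, and the other 66 of 72 single-tumour settings stayed within the spread.

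Signs turned in some setting for 12 of 24 named protocadherins. Without both second tumours the differences were -0.24 for Pcdhb2, -0.27 for Pcdhb3, -0.21 for Pcdhb4, -0.12 for Pcdhb19, -0.032 for Pcdh1, 0.055 for Pcdh11x, -0.042 for Pcdh12 and -0.036 for Pcdh15. With array weights they were -0.075 for Pcdhb4, -0.033 for Pcdhb19 and 0.00083 for Pcdh10. With 1 tumour left out they ranged from -0.0069 to 0.54 for Pcdhb2, from -0.18 to 0.37 for Pcdhb3, from -0.15 to 0.41 for Pcdhb4, from -0.17 to 0.36 for Pcdhb19, from -0.36 to 0.013 for Pcdh7, from -0.20 to 0.034 for Pcdh10, from -0.14 to 0.16 for Pcdh12, from -0.17 to 0.042 for Pcdh17 and from -0.40 to 0.12 for Pcdh20. For Pcdh12, leaving out vehicle tumour 1, vehicle tumour 3 or TMP195 tumour 2 gave -0.013, -0.060 and -0.14. The cause was not tested. Pcdhb13, Pcdh9, Pcdh18 and Pcdhb21 were among the 12 named protocadherins that kept their sign in every setting run. Pcdh9 ranged from 0.52 to 1.12 with 1 tumour left out. For Pcdhb13 and Pcdhb21 the groups did not overlap, so leaving out tumours could not turn the sign. Medians for Pcdha and Pcdhg could not be computed, because no gene of either was measured alone. Signal close to that of receptor genes limits Pcdhb1, Pcdhb9, Pcdh8, Pcdh10, Pcdh11x and Pcdh20, whose means were not above the receptor yardstick. It also limits Pcdh9, Pcdhb13 and Pcdhb21 in single tumours. Pcdh9 read 3.82 and 3.59 in vehicle tumours 2 and 3, and its second probe set 3.78 and 3.57, all below the yardstick. Pcdhb13 was below it in vehicle tumour 2, at 3.82. For Pcdhb21 the TMP195 values of 3.99, 3.96 and 3.96 lay just above it. The number of tumours, 3 a group, limits all members.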
